A study of Mus musculus with 3 samples.

Results

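Expression of 6 genes was followed through 3 libraries of follicular regulatory T (TFR) cells: the transcription factor genes Tbx21, Gata3 and Rora and the cytokine genes Ifng, Tnf and Il17a. They were picked by name, and are 6 of the 25759 genes in the deposited tables. The libraries were made from CD4+B220-GFP+CXCR5+GITRhi cells of spleen and mesenteric lymph node (mLN), 1 library per genotype, so no spread between mice can be given, no test was possible, and the number of mice behind a library is not stated in the sources used here. Mice had received 125 µg of the hapten-protein antigen NP-KLH in alum i.p., were boosted on day 7, and were used on day 10. The library labelled N is from Nfatc1fl/fl.Prdm1gfp/+.FIC mice, αA from Nfatc1caaA.Prdm1gfp/+.FIC mice, which express constitutively active NFATc1/αA in Tregs, and PαA from Nfatc1caaA.Prdm1gfp/fl.FIC mice, in which Blimp-1, the product of Prdm1, is targeted as well. All 3 genotypes carry FIC, a Cre recombinase driven from the Foxp3 locus, and a Prdm1 allele that reports as GFP and was used for the sort. There is no library without Cre, none from mice without a change at Nfatc1, and none with unmodified Prdm1. The paper describes cells homozygous for the GFP allele as Blimp-1-deficient, and N and αA carry 1 copy of this allele. The comparisons ask what active NFATc1/αA changed against NFATc1 deficiency (αA against N) and what targeting the other Prdm1 allele changed on top of it (PαA against αA). PαA against N, which shares its libraries with both, was read beside them.

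The checks of the labels came out unevenly. RPKM, the reads scaled to exon length and library total, was 63.6, 62.9 and 32.4 for Nfatc1 in N, αA and PαA. By its gene total, N was thus not below αA although labelled NFATc1-deficient, and PαA was lowest. These are totals per gene, in which the floxed exons and the introduced NFATc1/αA were not separated here. Every direction below therefore rests on the labels, and N, αA and PαA are names of labelled libraries. Prdm1 had 25.6, 24.9 and 10.0, and Foxp3 32.7, 20.9 and 15.3. The sort markers were present, with Cxcr5 at 48.3, 81.3 and 47.6. Between 23269443 and 27637953 reads per library fell on exons. Each ratio carries an exact Clopper-Pearson 95% interval from the exon reads. It covers counting error only, as PCR copies were not removed by molecular identifiers, and it compares libraries, not genotypes. In sorted bulk RNA, fewer cells that express a gene and less RNA per cell cannot be told apart.

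T-bet, encoded by Tbx21, directs the Th1 fate and the transcription of Ifng, whose product IFN-γ activates macrophages and shapes antibody class. GATA-3 directs the Th2 fate, with IL-4, IL-5 and IL-13 as its cytokines, and also maintains Foxp3+ Tregs. RORα, encoded by Rora, acts in Th17 cells, which make the neutrophil-recruiting cytokine IL-17A. TNF is an inflammatory cytokine of many helper cells. Tregs can take up T-bet, GATA-3 or RORα themselves and then resemble the helper type they restrain. NFAT proteins bind the core GGAAA, often next to AP-1, and are classical activators of cytokine genes, whereas Blimp-1 is mainly a repressor and binds sites with the core GAAAG.

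The 250 bases before the transcription start of all 6 genes were read from RefSeq (GRCm38.p6) and searched on both strands for these cores. Shown are Tbx21 and Gata3, whose levels changed in opposite directions, Il17a, which differed most, and Tnf, which differed little and holds the most NFAT cores. Capitals mark the NFAT core GGAAA, which appears as TTTCC where it lies on the opposite strand. They also mark the Blimp-1 core GAAAG, which then appears as CTTTC. These cores can share bases, as they do in GGAAAG. Each sequence is written 5′ to 3′ on the strand of the gene.
Tbx21, chr11:97115332-97115581, minus strand: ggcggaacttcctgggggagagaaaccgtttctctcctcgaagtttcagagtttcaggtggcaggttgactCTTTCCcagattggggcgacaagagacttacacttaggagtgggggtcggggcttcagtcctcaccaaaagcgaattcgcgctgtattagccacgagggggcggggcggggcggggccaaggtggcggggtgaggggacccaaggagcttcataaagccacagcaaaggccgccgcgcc
Gata3, chr2:9878601-9878850, minus strand: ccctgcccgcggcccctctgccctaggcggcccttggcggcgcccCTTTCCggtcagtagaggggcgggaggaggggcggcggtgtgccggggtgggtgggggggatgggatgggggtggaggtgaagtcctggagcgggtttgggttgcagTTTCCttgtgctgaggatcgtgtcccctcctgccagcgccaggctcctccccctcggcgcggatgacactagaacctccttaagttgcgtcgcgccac
Il17a, chr1:20730655-20730904, plus strand: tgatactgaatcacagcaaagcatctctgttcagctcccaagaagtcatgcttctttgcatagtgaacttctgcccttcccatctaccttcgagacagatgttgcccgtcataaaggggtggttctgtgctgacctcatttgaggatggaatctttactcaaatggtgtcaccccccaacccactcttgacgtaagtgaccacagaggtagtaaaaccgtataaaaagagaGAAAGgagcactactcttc
Tnf, chr17:35202008-35202257, minus strand: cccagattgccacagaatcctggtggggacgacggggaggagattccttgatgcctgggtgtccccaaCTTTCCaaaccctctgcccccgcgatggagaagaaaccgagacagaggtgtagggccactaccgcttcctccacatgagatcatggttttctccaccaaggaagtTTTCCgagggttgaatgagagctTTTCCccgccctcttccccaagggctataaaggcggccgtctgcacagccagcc

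Tnf held 3 NFAT cores, Gata3 2, and Tbx21, Rora and Ifng 1 each, while Il17a held 0 in this window. An NFAT core was present in 55.6% of 32851 promoter windows of the same length, and a GAAAG core, of which every gene but Rora had 1, in 51.5%, so either match is common. In Tbx21, Gata3 and Tnf the GAAAG core overlapped an NFAT core in the shared run CTTTCC. The Il17a window held 1 ROR half-site AGGTCA on the opposite strand, beginning 120 bases upstream of the start, which 14.02% of windows hold. It also held 1 AP-1 match TGANTCA, beginning 244 bases upstream, as do 6.75% of windows. No member held the T-box core AGGTGTG (5.10% of windows) or the GATA core AGATAA (9.99%). The Gata3 window lies inside the longer gene model of the deposited tables, which ends at position 9890034, so it is 1 of several possible starts. These matches are letters in the reference and no measurement of binding.

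**Figure D1:**
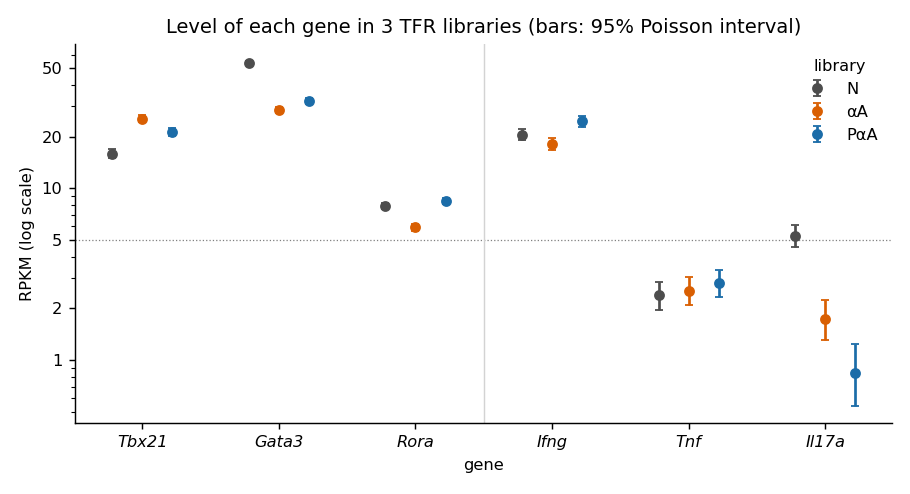
RPKM (log scale) of the 6 genes in the libraries N, αA and PαA, with 95% Poisson intervals, and a dotted line at an RPKM of 5. Gata3 is the highest of the 6 in every library, and Il17a is the only one whose 3 values span more than 2-fold, from 5.29 in N to 0.838 in PαA.

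Tbx21 (ENSMUSG00000001444, chromosome 11, 97098071 to 97115331, minus strand, 6 exons in the annotation) was higher in both libraries with active NFATc1/αA than in N. Exon reads numbered 1179 (N), 1719 (αA) and 1349 (PαA), which gave RPKM values of 15.9, 25.4 and 21.3. The αA library was thus the highest. The level in αA was 1.59-fold that in N (interval 1.48 to 1.71), a log2 ratio of 0.67, and 93.2% of the genes compared had a lower ratio. From αA to PαA the log2 ratio was -0.25 (-0.36 to -0.15), and PαA was above N by 0.42 (0.30 to 0.53). No interval included 0, and no value passed 2-fold.

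Gata3 (ENSMUSG00000015619, chromosome 2, 9857078 to 9890034, minus strand, 9 exons) showed the opposite order. N held 5468 exon reads against 2681 in αA and 2828 in PαA, with RPKM values of 53.6, 28.7 and 32.3. The N library stood apart and the libraries with active NFATc1/αA lay close together. Gata3 was 1.87-fold lower in αA than in N (1.78 to 1.96), and 17.8% of all genes compared had a larger change in either direction. It was 1.66-fold lower in PαA than in N (1.58 to 1.73), and its log2 ratio between PαA and αA was 0.17 (0.10 to 0.25). Gata3 overlaps 2 other genes of the tables, 4930412O13Rik on the other strand with 2, 0 and 0 reads and 9230102O04Rik with 7, 6 and 10, so they hold few reads.

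The ratio of Tbx21 to Gata3 inside a library needs no scaling between libraries. Per length, Tbx21 stood at 0.298 of Gata3 in N, and at 0.885 and 0.658 of it in αA and PαA. Both factors were therefore nearly level in αA, while Gata3 led in N. The log2 change of this ratio was 1.57 from N to αA (1.45 to 1.70) and -0.43 from αA to PαA (-0.55 to -0.30). Against Foxp3, the factor that defines Tregs, Tbx21 stood at 0.487, 1.21 and 1.40, and Gata3 at 1.64, 1.37 and 2.12. Foxp3 itself differed between the libraries in the same span, so these ratios carry its decrease too.

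Rora (ENSMUSG00000032238, chromosome 9, 68653786 to 69388246, plus strand, 16 exons) was the lowest of the 3 factors per length. Its 2662, 1825 and 2436 exon reads gave an RPKM of 7.91, 5.91 and 8.45. It was thus lowest in αA, with N and PαA close to each other. The log2 ratio was -0.42 for αA against N (-0.51 to -0.33), 0.51 for PαA against αA (0.43 to 0.60) and 0.10 for PαA against N (0.02 to 0.18). The last value changes sign with TPM in place of RPKM (-0.10), so N and PαA cannot be put in order. Rora also had the most intron reads: 245, 492 and 419, or 8.43%, 21.2% and 14.7% of its gene reads, against 3.01%, 4.56% and 3.29% over all genes. Its exon reads were lowest where its intron share was highest.

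Among the cytokines, Ifng (ENSMUSG00000055170, chromosome 10, 118441046 to 118445892, plus strand, 4 exons) was the most abundant of the 3. Its 737, 594 and 757 exon reads in N, αA and PαA gave RPKM values of 20.5, 18.1 and 24.6. PαA was the highest library and αA the lowest, within a narrow range. The log2 ratio was -0.19 for αA against N (-0.34 to -0.03; -0.02 with TMM factors), 0.45 for PαA against αA (0.29 to 0.60) and 0.26 for PαA against N (0.11 to 0.41). Ifng did not follow Tbx21: per length it stood at 1.29 of Tbx21 in N, and at 0.712 and 1.16 in αA and PαA. From N to αA this ratio changed by -0.86 on the log2 scale (-1.04 to -0.67), and back by 0.70 (0.51 to 0.89) in PαA. Of the Ifng reads, 96, 98 and 142 also matched elsewhere in the genome, and the unique shares were 87.0%, 83.5% and 81.2%.

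Tnf (ENSMUSG00000024401, chromosome 17, 35199381 to 35202007, minus strand, 6 exons) was low in each library. Its 116, 113 and 117 exon reads gave RPKM values of 2.38, 2.53 and 2.80. The 3 values lay within their Poisson intervals of each other. The log2 ratio was 0.09 for αA against N (-0.30 to 0.47), 0.15 for PαA against αA (-0.24 to 0.53) and 0.24 for PαA against N (-0.15 to 0.62). Each interval included 0, and a difference of up to 1.54-fold between PαA and N lies inside the last one, so smaller differences were not detectable at this depth.

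Il17a (ENSMUSG00000025929, chromosome 1, 20730905 to 20734496, plus strand, 3 exons) was lower in αA than in N, and lower again in PαA. N held 184 exon reads, αA 55 and PαA 25, with RPKM values of 5.29, 1.72 and 0.838. The 3 Poisson intervals did not overlap: 4.55 to 6.11, 1.30 to 2.24 and 0.543 to 1.24. Il17a was 3.07-fold lower in αA than in N (2.26 to 4.22) and 6.31-fold lower in PαA than in N (4.14 to 10.0). Between PαA and αA it was 2.06-fold lower (1.26 to 3.44), which is past 2-fold on the RPKM scale but not with TMM factors (log2 ratio -0.97). All its exon reads were unique, and 39, 18 and 5 of them crossed an exon-exon junction. In αA alone, 17 reads also fell into its introns.

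**Figure D2:**
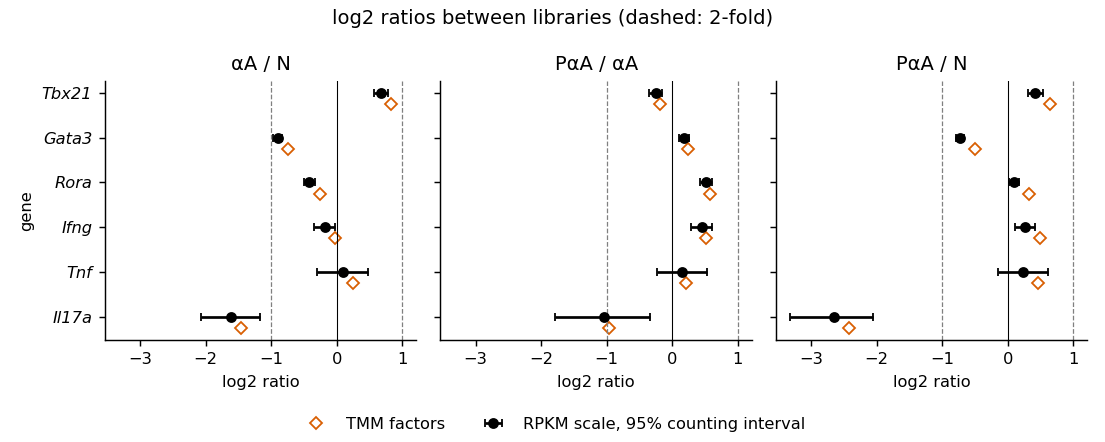
The log2 ratio of RPKM between libraries for each gene (black, with the exact 95% counting interval) and the same ratio with TMM factors (orange diamonds), for αA against N, PαA against αA and PαA against N. Dashed lines mark 2-fold; Il17a lies at -1.62, -1.04 and -2.66, and the other 5 genes stay inside the lines on both scales.

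Il17a was the only member past 2-fold in each comparison, 1 of 6, counted where the higher library held 20 exon reads or more. Over all genes the same rule was passed by 15.5% for αA against N, 14.9% for PαA against αA and 22.2% for PαA against N. A count of 1 in 6 is near these shares. In αA against N, 8.36% of genes compared had a larger change than Il17a, and in PαA against N 5.32%. At 1.5-fold, 3 members passed in αA against N (Tbx21, Gata3 and Il17a), beside 29.0% of all genes; the shares of all genes at 1.5-fold were 28.6% for PαA against αA, where 1 member passed, and 40.8% for PαA against N, where 2 did. The filter of the study, an expression value above 5, was read here as an RPKM above 5 in any library. So read, 5 of the 6 genes entered, and 4.25%, 4.63% and 10.3% of all such genes were past 2-fold in the 3 comparisons. Il17a entered only through N, the library where it is high, so its passing there adds nothing. The median log2 ratio of all genes was -0.18, -0.08 and -0.27 in the 3 comparisons, and TMM factors raise every ratio by 0.16, 0.07 and 0.23. With them Gata3 lay at -0.74 and Tbx21 at 0.83 for αA against N, and Ifng at 0.49 for PαA against N.

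**Figure D3:**
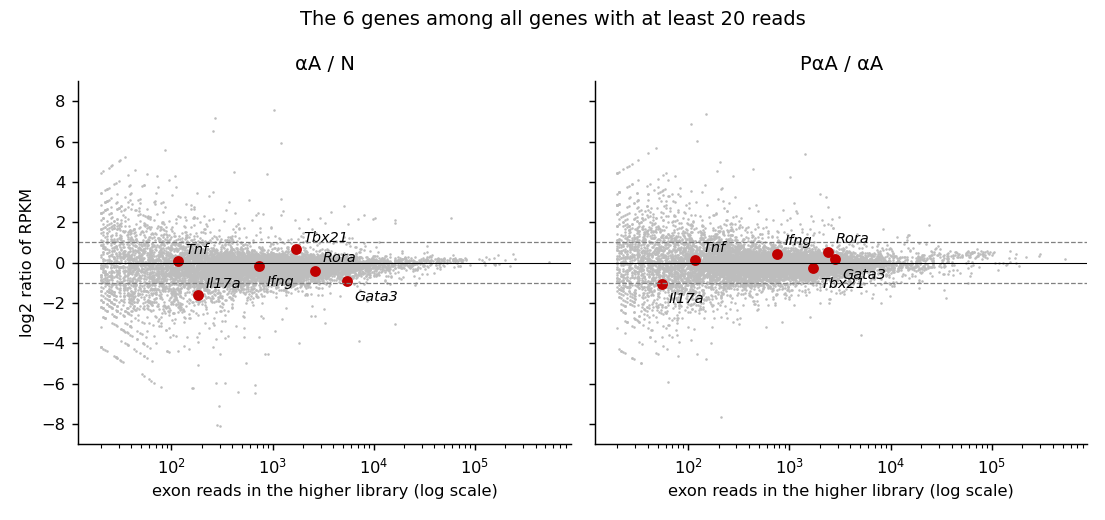
The log2 ratio of RPKM (y axis) against exon reads in the higher library (x axis, log scale) for genes with 20 reads or more there and reads in both libraries; red marks the 6 genes and dashed lines 2-fold. Tbx21 and Gata3 lie on opposite sides of 0 in αA against N, at 0.67 and -0.90, and Il17a lies below the lower line in both panels.

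The other genes of each pathway were taken from lists of textbook genes, which were chosen with earlier results of these data known. Il4, Il10, Jak2, Il6st, Ccr3, Ccr4, Ccr6, Ccr8 and Foxp3 in them were also chosen by the study from these libraries. Counts that hold these genes are thus not independent evidence of a direction. The Th2 list had the largest share of genes past 2-fold of the 8 lists in αA against N. Of its 21 genes compared, 0 were higher and 8 lower past 2-fold, beside 4.74% and 10.8% of all genes, and its median log2 ratio was -0.75. Cytokines, receptors and a chemokine receptor made up the 8. By RPKM, Il4 was at 8.69 in N and 2.54 in αA, Il13 5.89 and 2.32, and Il1rl1, the IL-33 receptor ST2, 15.9 and 3.20. Il5 had 52 exon reads in N and 3 in αA, where it is at the floor of 3 reads. Areg, Il17rb (54 and 20 of its 212 and 80 reads unique), Il9r and Ccr4 were the others. With TMM factors 7 of the 8 remained past 2-fold.

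In PαA the Th2 genes split. Il1rl1 was at 8.43 and Il5 at 60 exon reads, and Il9r and Il17rb were also past 2-fold higher than in αA. Areg, for the tissue-repair factor amphiregulin, was 1.10 against 2.30, and the chemokine receptors Ccr3 and Ccr8 were lower too. That is 4 higher and 3 lower of 21, beside 6.47% and 8.45% of all genes. With TMM factors it is 4 and 2, as Areg drops out. Gata3 itself differed by 0.17 between these libraries. Against N, PαA had 1 gene higher (Pparg) and 10 lower, beside 5.41% and 16.8% of all genes, among them Maf at 105 in N and 43.3 in PαA, with a list median of -0.91. The direction of this list was lower in both libraries with active NFATc1/αA, as it was for Gata3.

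The Th1 list had few genes past 2-fold in αA against N, where Tbx21 was higher. Of 23 genes compared, 2 were higher in αA than in N (Nkg7, a granule protein, at 252 against 108, and Txk, a T-cell kinase, at 6.45 against 2.57) and 1 lower (Eomes, the T-box relative of Tbx21, at 0.910 against 3.32), beside 4.74% and 10.8% of all genes. The list median was -0.20, close to that of all genes. In PαA against αA, 5 were higher and 0 lower, beside 6.47% and 8.45% of all genes: Eomes (3.02), Ccl3 (68.6 against 24.1), Ccl5 (1134 against 432), Il18r1 (38.0 against 14.4) and Il18rap (11.8 against 5.11). The median was 0.32. Cxcr3, a direct T-bet target, had 209, 242 and 284 in N, αA and PαA, and passed 2-fold nowhere. Against N, 4 genes were higher in PαA and 2 lower, beside 5.41% and 16.8% of all genes, or 4 and 0 with TMM factors.

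Genes of the Th17 list went both ways. In αA against N, Ccl20, Il23r and Il6st were higher and Csf2, Il17a and Il17f lower, 3 and 3 of 22 compared, beside 4.74% and 10.8% of all genes, and the list median was -0.04. In PαA against αA 6 were higher and 4 lower, beside 6.47% and 8.45% of all genes, while the median was -0.28, below 0 as for Il17a, with 12 of 22 ratios below 1. In PαA against N 6 were higher and 3 lower, beside 5.41% and 16.8% of all genes, with a median of -0.27, beside -0.27 for all genes. The IL-23 receptor gene Il23r stood at 0.730, 2.08 and 6.04 by RPKM, and the chemokine receptor gene Ccr6 had 11.4, 12.5 and 47.2. Both were highest where Il17a was lowest. Il17f, the neighbour and relative of Il17a, had 35, 3 and 21 exon reads, so that it was lowest in αA and near its N level in PαA (log2 ratio -0.51, -1.37 to 0.31). Ahr, the aryl hydrocarbon receptor gene, which supports Th17 cytokines, had 8.05, 6.17 and 2.92, and was past 2-fold lower in PαA than in either other library.

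**Figure D4:**
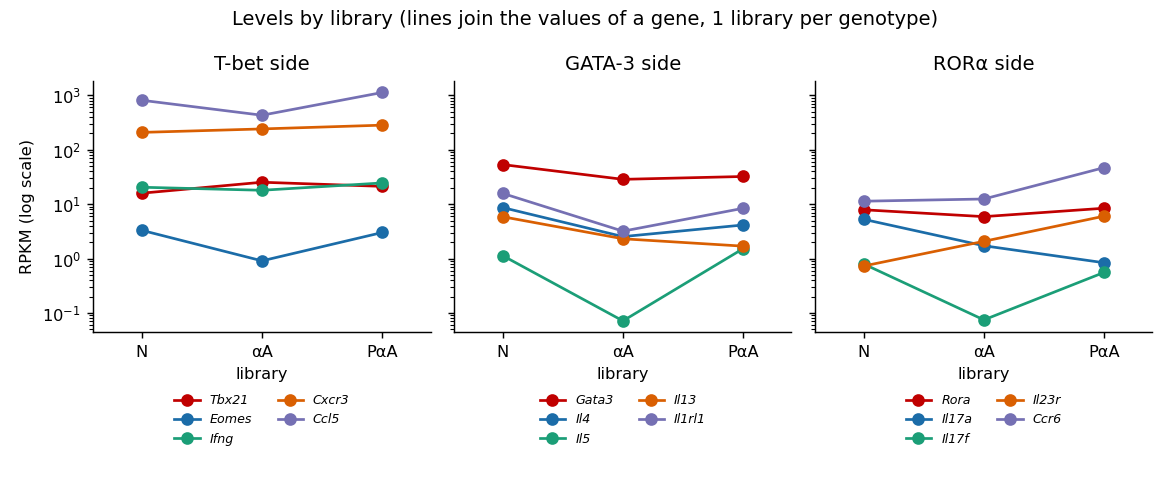
RPKM (log scale) of genes around T-bet, GATA-3 and RORα in the 3 libraries, 1 value per gene and library; lines only join the values of a gene. Il4, Il5, Il13 and Il1rl1 are all lower in αA than in N as Gata3 is, while Il17a goes down from 5.29 to 0.838 as Il23r goes up from 0.730 to 6.04.

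Set among 44 T-cell cytokine genes by RPKM, Ifng ranked 15th, 16th and 15th in N, αA and PαA, Tnf 30th, 27th and 27th, and Il17a 26th, 30th and 34th. The lead was held by Ccl5 in N (816) and PαA (1134) and by Ltb in αA (552). Of 37 cytokine genes compared, 1 was higher in αA than in N (Il10, 69.4 against 22.1) and 11 lower, beside 4.74% and 10.8% of all genes, with a median of -0.43. The lists share genes, so this count is not separate from those above. Areg, Il4, Il5 and Il13 among the 11 were also counted in the Th2 list, and Csf2, Il17a and Il17f in the Th17 list. Penk, the enkephalin precursor gene, had 332 in N and 40.6 in αA. Tnfsf4, for OX40 ligand, went from 45 reads to 0, at least 13.7-fold lower against a floor of 3 reads. In PαA against αA 10 of 38 were higher and 4 lower, beside 6.47% and 8.45% of all genes, with a median of 0.32. Il5, Csf2 (46 against 4 reads), Il2 (29 against 4, of which 18 and 4 were unique), Il17f and Tnfsf4 were among the 10, all from 4 reads or fewer in αA. Of the 11 genes lower in αA than in N, Il17a and Areg were past 2-fold lower again in PαA, and the other 9 were not. With TMM factors 2 of the 4 lower genes in PαA against αA remained, and neither Il17a nor Areg was among them.

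The receptors and signalling genes of TNF and IFN-γ were read next. Of 24 TNF genes, 0 passed 2-fold in αA against N, beside 15.5% of all genes. In PαA against αA 1 was lower, beside 8.45% of all genes: Tnfrsf1b, for TNFR2, at 225, 327 and 126 in N, αA and PαA. Its relative Tnfrsf1a had 11.0, 15.3 and 10.6. Against N, Lta was higher in PαA, and Adam17, Traf2 and Zfp36l1 were lower, 4 of 24 beside 22.2% of all genes, and with TMM factors Lta stayed past 2-fold and 0 of the 3 lower genes did. Of 22 genes of the IFN-γ receptor and its signalling, Ciita was higher (95 against 51 reads) and Jak2 lower (16.9 against 34.3) in αA than in N, beside 15.5% of all genes past 2-fold. Most Ciita reads also matched elsewhere, and its unique reads went the other way (1 in αA against 15 in N), so its direction is uncertain. Jak2 lay at -1.02 on the log2 scale, and at -0.86 with TMM factors. Ifngr2, the signalling chain of the receptor, had 3.69, 2.44 and 5.01, and Ifngr1 had 86.7, 124 and 173. In PαA against N, Jak2, Gbp4, Gbp5 and Gbp7 were lower and 0 higher, beside 16.8% and 5.41% of all genes, or 1 lower and 1 higher with TMM factors. Of the Gbp4 reads, 390 of 2444 in N and 73 of 919 in PαA were unique.

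**Figure D5:**
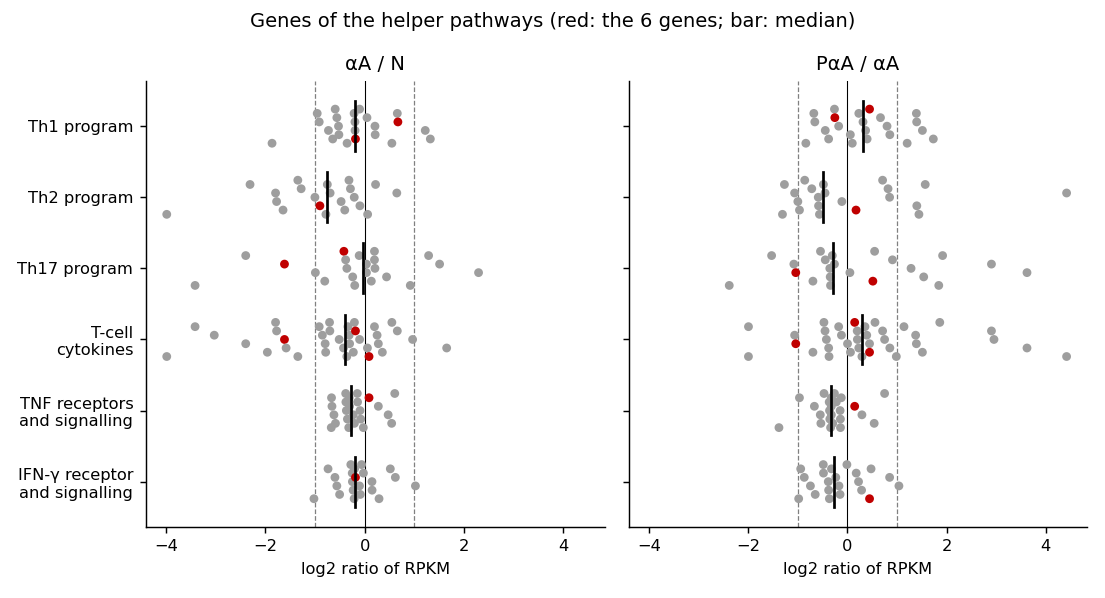
The log2 ratio of RPKM for each gene of 6 lists (grey points; red, the 6 genes; bar, list median; dashed lines, 2-fold) in αA against N and PαA against αA, for genes with reads in both libraries and 20 or more in the higher one. The Th2 median lies lowest in αA against N, at -0.75, and the Th1 median is -0.20 there and 0.32 in PαA against αA.

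Among 34 lineage transcription factors compared, Tbx21, Gata3 and Rora were inside 2-fold, as most were. In αA against N, Zbtb16, for PLZF, was higher, and Ascl2, Eomes and Lef1 were lower, 4 of 34 beside 15.5% of all genes. Zbtb16 was low, with 3, 57 and 30 exon reads in N, αA and PαA. Its intron reads were more numerous in each library (8, 99 and 50), so its direction is uncertain. In PαA against αA, Ascl2, Eomes and Id3 were higher, and Ahr and Prdm1, the targeted gene, lower, 5 of 34 beside 14.9% of all genes. Against N, 2 were higher in PαA and 7 lower, beside 5.41% and 16.8% of all genes, or 3 and 4 with TMM factors. The 7 include Foxp3 and the targeted Prdm1.

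RNA of other cells was looked for with marker lists, since Gata3, Rora, Tbx21 and the cytokines are also made outside Tregs. The summed RPKM of 5 Treg markers was 550, 494 and 265 in N, αA and PαA. Of 2 CD8 T-cell markers, Cd8a had 18, 179 and 231 reads and Cd8b1 400, 486 and 198, so Cd8a, but not the sum (9.27, 14.1 and 8.14), was higher in both libraries where Tbx21 and Nkg7 were higher. NK and ILC markers (7) summed to 107, 74.2 and 185, mostly Il7r, with Eomes, Il1rl1 and Ncr1 (12, 15 and 10 reads) among them. This sum was highest in PαA, as Ifng and Ccl5 were, and 6 of 7 markers had at least 20 reads in each library. The 8 myeloid markers summed to 264, 163 and 235, with S100a9 at 0 reads in αA. They were lowest in αA, as Rora, Ifng, Il5 and Il17f were, although Csf1r (6.25, 10.6 and 6.62) and Adgre1 (222, 470 and 407 reads) were highest there. Mast cell and basophil markers had under 20 reads each, with Mcpt8 at 0 in all 3 libraries. Of the γδ T-cell markers, Trdc and Tcrg-C1 have no exon length in the tables, and Sox13 had 6, 0 and 0 reads. Blk, which B cells also express, had 95, 54 and 26 reads, an order shared with Il17a. The B-cell markers Cd22 (678, 283 and 200 reads) and Ms4a1 (172, 123 and 88) had this order too. Cd79a (80, 65 and 147) and Pax5 (26, 39 and 13) did not. The B-cell list (7 markers) summed to 20.6, 14.8 and 16.1, plasma-cell markers (4) to 65.7, 78.3 and 113, follicular T-cell markers (5) to 618, 542 and 335, and the 3 measured T-cell markers to 1998, 2260 and 1712. The part of other cells in the results was not tested.

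The genes closest in pattern to each member were sought among 6235 expressed genes (6236 for Tnf), by the distance between log2 RPKM values centred over the 3 libraries. With 3 points per gene this is a description. Il17a had few neighbours, 5 genes within a distance of 0.25, and the nearest were the gut-homing receptor gene Ccr9 (22.3, 7.95 and 3.89), Areg (7.97, 2.30 and 1.10) and Syp (8.62, 3.33 and 1.39). The study itself picked Ccr9 from these libraries. Tbx21 had 140 genes within that distance, led by Supv3l1, Slpi and Sord, and Gata3 had 233, led by Adck5, Fkbp15 and Ankle2. Patterns like those of Rora (569), Ifng (965) and Tnf (1653) were common. Their nearest genes were Mrps26, Lrrc20 and Atp2b1 for Rora, Mterf3, Unc119b and Mri1 for Ifng, and Npm1, Eif6 and Sec11a for Tnf.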

How the data were processed

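Poly(A) RNA of sorted TFR cells was sequenced as 59-base single reads, 1 library per genotype. The authors trimmed adapters, aligned to GRCm38 and counted with CLC Genomics Workbench under default settings, and the annotation release and strand setting are not given in the sources used here. Per the file headers, whole-number counts of total, unique and junction exon reads, intron reads and gene reads were deposited without normalization, beside the RPKM and TPM that the authors' software made from the total exon reads. The tables hold 25759 genes, of which 3715 have an exon length of 0 and were left out. From 25465829 reads (PαA) to 29726219 reads (N) stand behind the RPKM of a library.

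RPKM ratios were formed with exact Clopper-Pearson 95% intervals, and 95% Poisson intervals for single levels. A gene counted as past 2-fold with at least 20 exon reads in the higher library and a ratio above 2. The study's own filter, an expression value above 5, was read as RPKM and served as a second background. The deposited expression value equals the total exon reads for all 22044 genes used, and on reads all 6 genes would enter. A floor of 3 reads gave bounds against libraries at 0. Intervals of ratios inside a library came from the delta method on log counts. With 1 library per genotype, no p-value was computed. The 6 genes, the 8 gene lists and the marker lists were chosen with earlier results of these data known. Named genes are the 6, Foxp3, Nfatc1 and Prdm1 as label checks, sort and cell markers, list genes past 2-fold (all, or the extremes of longer lists), overlapping genes, the lead cytokines and the 3 nearest patterns. List genes inside 2-fold that are named (Cxcr3, Tnfrsf1a, Ifngr1) were chosen after their values were seen.

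Alternatives were TPM, TMM factors (edgeR 4.0.16, R 4.3.3) and median-of-ratios factors, unique reads, other read, RPKM and fold minimums and pseudocounts of 1 and 0.1. Python 3.11.15, pandas 2.3.3, numpy 2.4.6, scipy 1.17.1 and matplotlib 3.10.9 were used, and the ratio and interval steps were tested on simulated counts. Coordinates are those of the tables (GRCm38), and they were the same in GENCODE M21 for all 6 genes. A few list genes past 2-fold are left unnamed and without values.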

Additional observations from a re-analysis of the deposited data

How the results depend on the processing

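The 6 log2 ratios per comparison were recomputed under 6 alternatives, and 28 of 36 values for αA against N, 32 of 36 for PαA against αA and 23 of 36 for PαA against N stayed inside the main counting interval. One changed sign, Rora in PαA against N, at -0.10 with TPM. The members past 2-fold were 3 at 1.5-fold in αA against N and 2 at 1.5-fold in PαA against N. In PαA against αA they were 0 with TMM factors, median-of-ratios factors, a pseudocount of 1 or of 0.1, or when the counting bound itself had to pass 2-fold. Here the call of Il17a ends because its ratio is just past 2 on 55 and 25 reads.

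Of all genes counted by reads, 1854 passed for αA against N, and 5439 without a minimum of reads, 1159 with 50, 356 with a pseudocount of 1, 3462 at 1.5-fold and 1021 by the counting bound. For PαA against αA 1743 passed, and 5365 without a minimum, 2685 with 10 reads, 1098 with 50, 360 with a pseudocount of 1, 3339 at 1.5-fold and 940 by the bound. For PαA against N 2648 passed, and 5220 without a minimum, 808 with a pseudocount of 1, 4858 at 1.5-fold and 1621 by the bound. By the RPKM rule αA against N gave 298 genes, and 978 above an RPKM of 1, 146 above 10, 558 with TPM and 988 at 1.5-fold. PαA against αA gave 325, and 1016, 171, 632 and 1033 under the same changes, and PαA against N gave 725, and 1715, 392, 1539 and 1966. List genes past 2-fold were 29 of 161, 39 of 163 and 53 of 163 in the 3 comparisons, beside 15.5%, 14.9% and 22.2% of all genes. They were 16, 23 and 35 with a pseudocount of 1. At 1.5-fold they were 61, 71 and 94, beside 29%, 28.6% and 40.8% of all genes.

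Scaling moved the balance of directions. List genes in PαA against N were 20 higher and 33 lower, beside 5.41% and 16.8% of all genes, but 23 and 19 with TMM factors. In PαA against αA they were 27 and 12, beside 6.47% and 8.45% of all genes, but 23 and 20 with TPM. All genes in PαA against N were 645 higher and 2003 lower, but 829 and 1434 with TMM factors. No paired analysis was possible because each genotype has 1 library, and no library could be left out for the same reason. Depth limits Tnf, Il17a, Il17f and Il5, which rest on 184 reads or fewer in each library.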

Other observations

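RORα shares its DNA element with the repressors of the circadian clock, and 20 nuclear receptor and clock genes were read out beside Rora. The repressor gene Nr1d1, for REV-ERBα, had 135, 151 and 869 exon reads in N, αA and PαA, or an RPKM of 1.67, 2.04 and 12.5. It was 2.62 higher on the log2 scale in PαA than in αA (interval 2.37 to 2.88). Hlf had 5.13, 2.09 and 5.10, Per3 95, 4 and 20 reads, and Npas2 12, 5 and 59 reads, so 4 of 20 genes were past 2-fold higher in PαA than in αA and 1, Tef, lower, beside 6.47% and 8.45% of all genes. Of the Per3 reads, 17 of 95 were unique in N and 0 in αA and PαA, so its direction is uncertain. In αA against N, 0 of 19 were higher and Hlf and Per3 were lower, beside 4.74% and 10.8% of all genes. The clock-output gene Hlf thus had the lowest level in αA, as Rora did, whereas Nr1d1 did not. The hour of the day at which each sort was made is not given in the sources used here, and its part was not tested.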
